A study of Mus musculus with 42 samples.

Results

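Uterine tissue-resident NK (trNK) cells were compared between gestational day (gd) 8.5 and gd6.5 by bulk RNA-seq, with the vaginal plug counted as gd0.5. The comparison took the 4 libraries whose labels give trNK at these days, 2 at each day, of the 42 samples of the series, and every gene expressed in them. By the methods, the cells came from wild-type C57BL/6 females of 8 to 12 weeks and were sorted from digested uteri as live leukocytes (CD45+) that stained for NK1.1, NKp46 and CD49a and lacked CXCR6 and a mix of lineage markers that included CD3, CD5 and Gr-1. The labels give no treatment for these mice or cells. The labels do not say whether the replicates were separate mice or pools, so the p-values measure only the spread between these libraries, which may be technical.

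Uterine trNK cells are lymphocytes that stay in the uterine wall and do not circulate. After implantation, the uterine stroma turns into decidua, and the trNK cells in it divide, fill with granules and secrete cytokines and chemokines that act on trophoblast and on the spiral arteries. NK cells kill through granules that carry perforin and granzymes, read their targets through the Ly49, NKG2 and NKR-P1 lectin receptors, and answer to cytokines such as IL-2, IL-12, IL-15 and IL-21. The day comparison asks how their transcriptome moved within early decidualization.

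The gd6.5 libraries held 22785685 and 19391679 counts, and the gd8.5 libraries 16820631 and 16422380. RPKM is the number of reads per kilobase of gene, scaled to the total count of the library, and genes were tested where it exceeded 10 in both libraries of either day. Spearman's correlation across these genes, given as a description, reached 0.962 for the replicates of either day and 0.874 to 0.905 for libraries of different days. Of the genes the gate selects on, Ptprc (CD45) stood at 89.6, 113, 96.1 and 101 RPKM in gd6.5 replicates 1 and 2 and gd8.5 replicates 1 and 2, Ncr1 (NKp46) at 493 or more, and Itga1 (CD49a) at 9.19 or more in each library. Cxcr6, which the gate leaves out, stood at 16.2 and 7.58 RPKM at gd6.5 against 0.0308 and 5.08 at gd8.5, so the transcript was above 5 RPKM in 3 of the 4 libraries although the gate leaves the protein out. Library gd8.5 replicate 2 stood apart in erythroid transcripts. Its 8 erythroid marker genes summed to 844 RPKM, with Hba-a1 (alpha globin) at 493, against 0.237, 0.435 and 0.251 in the other libraries.

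Of 4356 genes tested, 252 (5.79%) differed more than 2-fold between the days with an adjusted p under 0.05 (edgeR quasi-likelihood test, Benjamini-Hochberg adjustment). At gd8.5, 73 genes (1.68%) were higher and 179 (4.11%) were lower. Without the fold limit, 349 (8.01%) were higher and 625 (14.3%) lower. The expression filter bears on these counts. A gene that passed it at a single day had a library at or under 10 RPKM at the other day, and so tended to be higher where it passed. Both days passed for 3559 genes, of which 31 (0.871%) were called higher and 70 (1.97%) lower, while 42 of the 73 higher genes passed only through gd8.5 and 109 of the 179 lower genes only through gd6.5. For each of the 252 genes both libraries of one day lay above both of the other, an arrangement found for 33.2% of all genes with gd8.5 above and 36.5% with gd8.5 below. The genes that rose included cytokine, chemokine and interferon-stimulated genes, and those that fell included genes of DNA replication, mitosis and cholesterol synthesis. The calls rest on the spread within these 4 libraries. When the 2 virgin libraries of the same experiment were fitted with them, the common biological coefficient of variation rose from 0.159 to 0.254 and edgeR called 0 genes, with a smallest adjusted p of 0.0919 and 261 genes at an unadjusted p under 0.05 with the same fold. The direction of the 252 genes was bound to hold in that fit, since its difference between the days rests on the same 4 libraries.

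**Figure D1:**
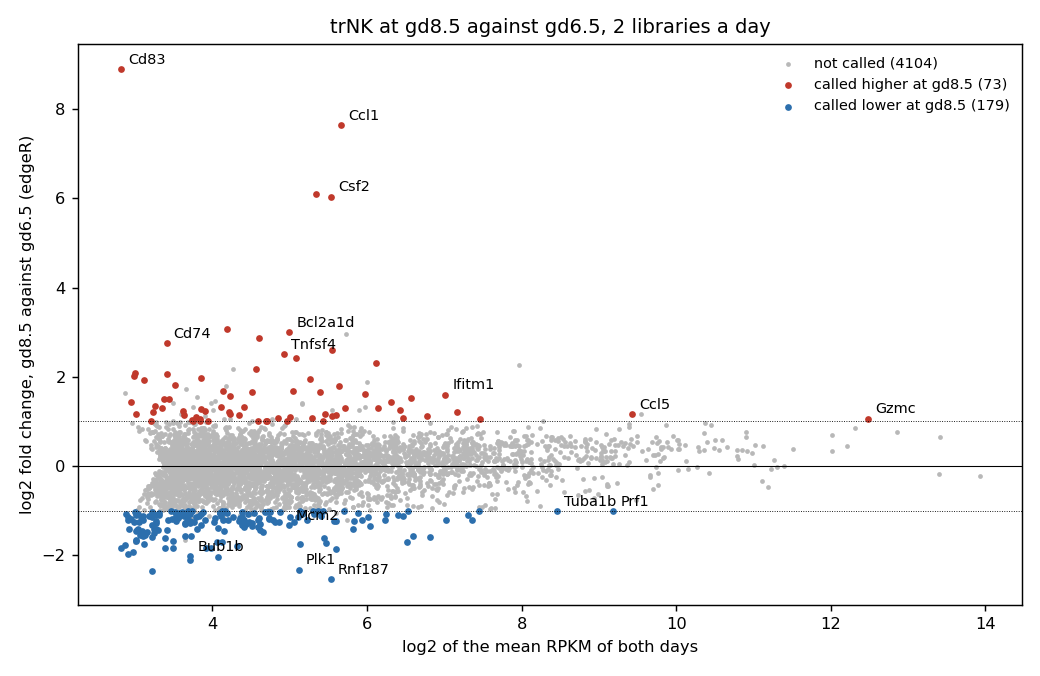
Each point is 1 of the 4356 genes tested, placed by the log2 of its mean RPKM over both days (x axis) and its log2 fold change at gd8.5 against gd6.5 (y axis), with the dotted lines at a 2-fold change. The 73 genes called higher (red) reach a log2 fold change of 8.89 (Cd83), while the 179 called lower (blue) go no lower than -2.54 (Rnf187).

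The 3 largest rises among the named genes were those of Cd83, Ccl1 and Csf2. Csf2 encodes the cytokine GM-CSF, a growth factor of macrophages and granulocytes, and lies on chromosome 11 at 54247271 to 54249667 (mm10, minus strand). It stood at 1.76 and 1.03 RPKM at gd6.5 against 78.4 and 104 at gd8.5. The rise of 6.03 ± 0.35 on the log2 scale (fitted value and standard error) had an adjusted p of 0.00082. Ccl1, a chemokine that acts through the receptor CCR8, lies on the same chromosome at 82176657 to 82305690 (minus strand). Ccl1 went from 0.834 and 0.152 RPKM to 64.1 and 137 (log2 fold change 7.64, standard error 0.63, adjusted p = 0.00459), and the value ranged from 6.95 without gd6.5 replicate 2 to 9.38 without gd6.5 replicate 1. Both genes were near the bottom of the scale at gd6.5 and among the well expressed genes at gd8.5. Cd83, a surface glycoprotein of activated dendritic cells and lymphocytes (chromosome 13, 43784775 to 43803132, plus strand), had 3 counts in the 2 gd6.5 libraries together and 1211 at gd8.5. Scaled to library totals this is a ratio of 512, with a 95% counting interval of 175 to 2487 that covers counting error only, since PCR reads without molecular identifiers are not independent molecules. In RPKM, Cd83 stood at 0.0341 and 0.0201 at gd6.5 against 17.5 and 10.8 at gd8.5 (adjusted p = 0.00082).

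Of the other 8 tested cytokine and chemokine genes, Ccl3 and Ccl5, chemokines that draw in macrophages, T cells and NK cells, also rose. Ccl3 stood at 16.8 and 15.2 RPKM at gd6.5 against 43.9 and 77.5 at gd8.5 (log2 fold change 1.95, adjusted p = 0.0131), and Ccl5 at 281 and 578 against 1052 and 842 (1.16, adjusted p = 0.0373). The gd6.5 replicates of Ccl5 lay far apart, and the gene was not called without gd6.5 replicate 1 (log2 fold change 0.75) or without gd8.5 replicate 1 (adjusted p = 0.0745). The 4 genes called are 40% of the 10 tested, against 1.68% of all genes, with a list median of 0.86 against 0.00, but Csf2 and Ccl1 passed the filter only through gd8.5. Of the 8 genes that passed it at both days, 2 (25%, against 0.871% of all such genes) were called and the median was 0.45. With a correction for gene length and GC content, described further on, 6 of the 10 lay above 0, the median was 0.32 and 3 were called. The remaining 6 did not pass. Among them Ccl4 stood at 415, 516, 501 and 1549 RPKM, with 1 gd8.5 library within the gd6.5 level and the other above it. Both gd8.5 libraries of Xcl1 (620, 804.3, 1160 and 918) lay above the gd6.5 ones (adjusted p = 0.0541), whereas the libraries of Ifng (25.7, 28, 18.2 and 37.1) and of Spp1, or osteopontin (4935, 2426, 4726 and 4450), overlapped between days.

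In the TNF family, the ligand Tnfsf4 (OX40L, which costimulates T cells through OX40) rose. It stood at 9.08 and 9.30 RPKM at gd6.5 against 53.8 and 49.4 at gd8.5 (log2 fold change 2.51, standard error 0.19, adjusted p = 0.00287), so replicates of a day lay far closer together than the days did. Tnfsf4 passed the filter only through gd8.5 and was the 1 called of 4 tested TNF family ligands (25%, against 1.68% of all genes). The receptor Tnfrsf18 (GITR) rose from 64.9 and 74.5 RPKM to 147 and 151 (1.12, adjusted p = 0.0100), whereas the TNF receptor Tnfrsf1b fell from 45.1 and 48.8 to 22.1 and 16.9 (-1.25, adjusted p = 0.0100). Tnfrsf9, which encodes 4-1BB, marks the differentiating cells in this study together with Cd55. Neither passed: Tnfrsf9 stood at 1137, 626, 709 and 755 RPKM (adjusted p = 0.491) and Cd55 at 81.5, 55.6, 71.3 and 65.7 (adjusted p = 0.944). Their gd8.5 libraries lay between the gd6.5 ones.

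Among 12 tested cytokine receptors, Il2ra rose and Il12rb1 fell (8.33% each, against 1.68% of all genes higher and 4.11% lower). Il2ra passed the filter only through gd8.5. This gene, the high-affinity alpha chain of the IL-2 receptor, stood at 4.46 and 1.74 RPKM at gd6.5 against 14 and 11.8 at gd8.5 (log2 fold change 2.08, standard error 0.41, adjusted p = 0.0178), or 2.92 without gd6.5 replicate 1. Il12rb1, a chain shared by the IL-12 and IL-23 receptors, stood at 31.4 and 26 against 13.3 and 12.4 RPKM (-1.14, adjusted p = 0.0109), and fell just short of the fold limit without gd6.5 replicate 1 (-0.98). The 2 chains that the IL-2 and IL-15 receptors share passed the adjusted p but not the fold limit, and in opposite directions. Il2rb stood at 495 and 544 RPKM at gd6.5 against 335 and 318 at gd8.5 (-0.65, adjusted p = 0.0155), and Il2rg, the common gamma chain, at 278 and 311 against 430 and 460 (0.62, adjusted p = 0.0192). Il21r, the receptor of the cytokine the study centres on, likewise stayed under the fold limit at 32.9 and 43 against 23.7 and 22.6 RPKM (-0.69, adjusted p = 0.0289).

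Of 17 tested apoptosis regulators, Bcl2a1d and Bcl2a1b were called higher (11.8%, against 1.68% of all genes) and Endog lower (5.88%, against 4.11%). These 3 passed the filter at a single day each, and of the 10 that passed it at both days none was called by edgeR. Bcl2a1d, a BCL2-family protein that blocks apoptosis, rose from 8.09 and 6.27 RPKM to 55.4 and 57.7 (log2 fold change 3.00, standard error 0.26, adjusted p = 0.00459). Its near-identical copy Bcl2a1b stood at 5.96 and 9.72 against 16.8 and 17.1 (1.14, adjusted p = 0.0452), and was not called on leaving out gd6.5 replicate 1 or either gd8.5 library (adjusted p from 0.126 to 0.201). Reads may be split between the copies, so the level of either is uncertain. Outside this list, Gadd45b, a stress-response gene, rose from 9.20 and 17.8 RPKM to 81.6 and 78.7 (2.60, adjusted p = 0.0100). The endonuclease Endog was called lower, at 12.9 and 10.4 against 4.42 and 6.07 RPKM, and that call was lost on leaving out each library in turn (adjusted p from 0.0566 to 0.19). The proapoptotic Bid (65.1, 66, 52.3 and 49.7) and the antiapoptotic Bcl2 (25.1, 43.4, 38.6 and 41.5) did not pass.

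**Figure D2:**
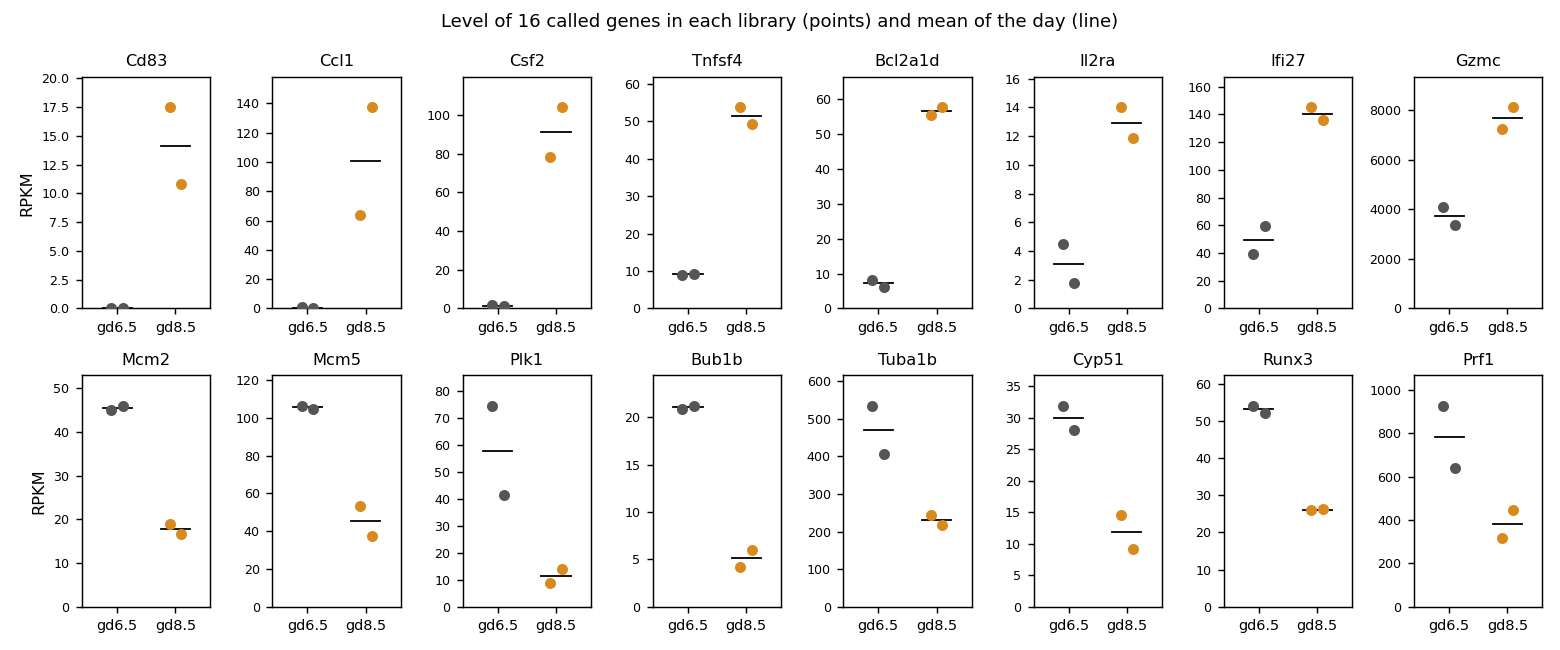
RPKM (y axis, from 0, a scale for each gene) in each of the 2 libraries of gd6.5 (grey points) and gd8.5 (orange points), with a line at the mean of the day. In the upper row the gd8.5 libraries of 8 genes that rose all lie above the gd6.5 libraries, and in the lower row those of 8 genes that fell lie below them.

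Interferon-stimulated genes, which cells switch on after type I or type II interferon, lay higher at gd8.5. Of 28 tested, 26 had a log2 fold change above 0 (50% of all genes did), 5 (17.9%, against 1.68% of all genes) were called higher and none by the same edgeR test lower, with a list median of 0.64. Of the 22 that passed the filter at both days 3 (13.6%, against 0.871% of all such genes) were called and the median was 0.54. Ifitm1, which encodes an interferon-induced membrane protein, rose from 76.3 and 52.9 RPKM to 202 and 184 (log2 fold change 1.6, adjusted p = 0.0100). Ifi27 rose from 39.3 and 59.7 RPKM to 145 and 136 (1.53, adjusted p = 0.0100). For both genes the days were separated by more than the spread between replicates. Rtp4, a chaperone of membrane receptors, stood at 3.58 and 6.63 against 22 and 13.3 RPKM (1.81, adjusted p = 0.0202), Xaf1 at 5.89 and 11.3 against 19.5 and 21.3 (1.27, adjusted p = 0.0269), and the GTPase Ifi47 at 51.7 and 63.7 against 150 and 88.8 (1.07, adjusted p = 0.0243). The calls of Rtp4, Xaf1 and Ifi47 were lost without gd6.5 replicate 1 (adjusted p = 0.0804, 0.05 and 0.0817), and those of Rtp4 and Ifi47 also without gd8.5 replicate 1 (0.0591 and 0.0532). A further 9 members passed the adjusted p below the 2-fold limit, among them the antiviral enzyme Oas1a (15.7 and 19.4 against 30.2 and 33.1 RPKM), the transcription factor subunit Irf9 (7.99 and 11.7 against 19.4 and 14.8) and Ly6e (538 and 489 against 741 and 719). The peptide transporter Tap1 was the exception that passed in the other direction, at 37.2 and 32.5 against 23.3 and 22.5 RPKM (-0.59, adjusted p = 0.0237). Ifitm3, at 125, 51.8, 201 and 35.3 RPKM, differed more between replicates than between days. The Ifitm genes are close relatives, and reads may be shared among them.

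The cytolytic genes did not move as a block. Of 19 tested, Gzmc and Gzmk were called higher (10.5%, against 1.68% of all genes) and Prf1 lower (5.26%, near the 4.11% of all genes). Gzmk passed the filter only through gd8.5, and of the 18 genes that passed it at both days 1 was called higher (5.56%, against 0.871% of all such genes). With the length and GC correction 1 gene was called higher and none by edgeR lower, with a median of -0.02. Gzmc, a granzyme gene on chromosome 14 (56231441 to 56234656, minus strand), was among the most abundant transcripts of the cells and rose from 4115 and 3353 RPKM to 7237 and 8123 (log2 fold change 1.06, standard error 0.14, adjusted p = 0.0101). Without gd6.5 replicate 2 or gd8.5 replicate 2 its log2 fold change was 0.94 or 0.95, just under the limit. Gzmk was far scarcer, at 4.99 and 6.42 against 13.7 and 18.1 RPKM (1.5, adjusted p = 0.0177), and was not called without gd6.5 replicate 1 (adjusted p = 0.086) or gd8.5 replicate 2 (adjusted p = 0.0662). Prf1, which encodes the pore-forming protein perforin, fell from 926 and 638 RPKM to 317 and 447 (-1.01, standard error 0.23, adjusted p = 0.0243). Prf1 lost its call without gd6.5 replicate 1 (-0.70, adjusted p = 0.0556) and without gd8.5 replicate 1 (-0.80, adjusted p = 0.0723). Gzmb, the most abundant granzyme, stood at 12992, 10007, 10267 and 9815 RPKM (-0.17, adjusted p = 0.391), and Gzma at 3579, 1359, 1464 and 2393 (-0.33, adjusted p = 0.581). Gzmg, at 150, 23.4, 137 and 684 RPKM, varied widely among the libraries (adjusted p = 0.113). The granzymes Gzmb to Gzmg are related neighbours on chromosome 14. Reads may be shared among the closest copies, so the separate levels of those are uncertain. Nkg7, a granule membrane protein, passed the adjusted p at 3948 and 4179 against 5427 and 5460 RPKM (0.44, adjusted p = 0.0317).

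NK receptor and adaptor genes lay mostly a little higher at gd8.5. Of 37 tested, 35 had a log2 fold change above 0 (50% of all genes did) and 12 passed the adjusted p in that direction (8.01% of all genes did), but Klrb1a, a receptor of the NKR-P1 family, was the 1 that passed the 2-fold limit as well (2.70%, against 1.68% of all genes). With the length and GC correction 23 lay above 0. Klrb1a stood at 26.5 and 24.2 RPKM at gd6.5 against 48.7 and 57.2 at gd8.5 (log2 fold change 1.09, adjusted p = 0.0136), or 0.93 without gd8.5 replicate 2. The signalling adaptor Tyrobp (DAP12) stood at 2867 and 3557 against 5093 and 5104 RPKM (0.69, adjusted p = 0.0179), and Fcgr3 (CD16) at 83.8 and 75 against 130 and 126 (0.71, adjusted p = 0.0155). The NKG2D gene Klrk1, at 120, 154, 165 and 164 RPKM, did not pass (adjusted p = 0.185). These genes are short, with a median length of 1540 bases against 3052 over all genes, and gene length moved with the day difference as described further on. The Ly49 (Klra) and NKR-P1 (Klrb1) genes belong to families of near-identical copies.

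Proliferation genes lay lower at gd8.5. Of 44 tested DNA replication genes, 8 (18.2%) were called lower, none of the others by the same edgeR test higher, and 40 had a log2 fold change below 0, with a list median of -0.47. Of 48 tested mitosis genes, 9 (18.8%) were called lower, 43 were below 0 and the median was -0.69. Lower calls made up 4.11% of all genes, of which 50% lay below 0. Of the genes that passed the filter at both days, 5 of 33 DNA replication genes (15.2%) and 3 of 38 mitosis genes (7.89%) were called lower, against 1.97% of all such genes, with medians of -0.25 and -0.59. Cell cycle genes of the S phase are commonly controlled by E2F factors, and those of mitosis by the complexes that bind the cell cycle homology region (CHR) and CCAAT boxes. Sequences with such motifs are shown for genes that fell. They are from RefSeq (GRCm38.p6), in windows from 250 bases before to 50 after the gene start, printed 5′ to 3′ on the strand of the gene with the motif in capitals. Matches inside the transcript are shown in 30 bases only. The E2F motif was searched as TTTCCCGC, TTTCGCGC, TTTGCCGC and TTTGGCGC and the CHR as TTTGAA, on both strands, and overlapping matches were counted once per gene.

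The E2F matches among the DNA replication genes called lower were in Mcm3 (chr1:20820266-20820295, minus strand), Mcm5 (chr8:75109259-75109467, plus strand, where the pair of matches overlap) and Pold1 (chr7:44548766-44548795, minus strand).
Mcm3: tgGCGGGAAAacttgggaagtTTTGGCGCc
Mcm5: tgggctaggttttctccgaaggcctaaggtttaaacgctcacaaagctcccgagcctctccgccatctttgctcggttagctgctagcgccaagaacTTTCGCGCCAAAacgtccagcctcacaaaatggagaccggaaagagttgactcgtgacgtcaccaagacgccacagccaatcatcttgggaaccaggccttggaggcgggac
Pold1: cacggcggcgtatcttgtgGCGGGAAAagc

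The CHR matches among the mitosis genes called lower were in Plk1 (chr7:122159453-122159482, plus strand), Bub1b (chr2:118598231-118598260, plus strand), Kif22 (chr7:127042468-127042670, minus strand, where a further match nearer to the start lies outside the stretch shown) and Tubb4b (chr2:25224703-25224952, minus strand).
Plk1: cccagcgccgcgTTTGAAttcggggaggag
Bub1b: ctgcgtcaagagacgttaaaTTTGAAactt
Kif22: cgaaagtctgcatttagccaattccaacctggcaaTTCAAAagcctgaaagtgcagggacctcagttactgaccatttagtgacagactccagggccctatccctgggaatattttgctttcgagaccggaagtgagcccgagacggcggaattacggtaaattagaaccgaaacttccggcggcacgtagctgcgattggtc
Tubb4b: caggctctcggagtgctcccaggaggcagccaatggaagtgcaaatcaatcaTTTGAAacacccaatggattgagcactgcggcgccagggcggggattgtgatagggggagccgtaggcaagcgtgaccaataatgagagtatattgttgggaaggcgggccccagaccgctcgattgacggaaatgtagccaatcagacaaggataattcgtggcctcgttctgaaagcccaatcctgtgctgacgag

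Among all genes called lower with a promoter entry, 5.92% held an E2F match and 11.8% a CHR match, close to the shares of the genes tested. Of the 40 genes called higher with an entry, 0% held an E2F match and 22.5% a CHR match, so the CHR letters were not particular to genes that fell. An E2F match was present in 10 of the 37 tested DNA replication genes with a promoter entry (27.0%), against 4.86% of the 3315 tested genes with one and 2.32% of all 27025 promoters. A CHR match was present in 24 of 37 mitosis genes (64.9%), against 13.4% of the tested genes and 18.1% of all promoters. Such a match is a description of these letters and not a binding site.

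The called DNA replication genes held 4 of the subunits of the MCM helicase, which opens DNA at replication origins. Mcm2 (chromosome 6, 88883474 to 88898780, minus strand) stood at 45 and 46 RPKM at gd6.5 against 19 and 16.7 at gd8.5 (log2 fold change -1.33, standard error 0.13, adjusted p = 0.00851). Mcm5 stood at 106 and 105 against 53.1 and 37.3 RPKM (-1.20, adjusted p = 0.0109), and Mcm3 at 76.2 and 84.2 against 38.1 and 29.2 (-1.23, adjusted p = 0.0100). For these 3 genes the gd6.5 replicates lay close together and both gd8.5 libraries far below them. Mcm4 was called as well (-1.14). The other 4 were Uhrf1, which carries DNA methylation through replication (-1.70), the DNA polymerase delta subunit Pold1 (-1.31), the ribonucleotide reductase subunit Rrm1 (-1.22) and the kinase Cdc7, which fires origins (-1.11, adjusted p = 0.0765 without gd6.5 replicate 1). Without gd8.5 replicate 2 the count was 5, without gd8.5 replicate 1 it was 15, and it was 2 where filterByExpr of edgeR chose the genes tested.

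Of the mitosis genes, the kinase Plk1 (chromosome 7, 122159439 to 122169873, plus strand), which drives entry into and passage through mitosis, fell most. It stood at 74.6 and 41.3 RPKM at gd6.5 against 8.65 and 14.2 at gd8.5 (log2 fold change -2.32, standard error 0.35, adjusted p = 0.0111). The spindle checkpoint kinase Bub1b stood at 20.9 and 21.2 against 4.23 and 5.98 RPKM (-2.02, standard error 0.23, adjusted p = 0.0100). Both lay well apart between the days. Ccna2 (cyclin A2) stood at 44.9 and 24.6 against 15.7 and 10.7 RPKM (-1.37, adjusted p = 0.0231), and the tubulin gene Tuba1b at 534 and 406 against 243 and 217 (-1.01, adjusted p = 0.0120), right at the fold limit and under it without gd8.5 replicate 2 (-0.96). Ncaph, a condensin subunit, Incenp, the kinesins Kif20a and Kif22 and the tubulin Tubb4b were the other genes called. In 8 of these 9 genes gd6.5 replicate 1 was the highest library. The count was 2 without that library, where Plk1 and Bub1b were still called, 23 without gd6.5 replicate 2 and 2 with filterByExpr. Ccne1 (cyclin E1) was the 1 of 13 tested G1 and S phase control genes called (7.69%, against 4.11% of all genes lower) and passed the filter only through gd6.5, at 21.1 and 15.7 against 8.98 and 6.57 RPKM (-1.22, adjusted p = 0.0216, or 0.129 without gd6.5 replicate 1). Mki67, the gene of the proliferation antigen Ki-67, did not reach the expression filter, and its libraries overlapped at 10.2 and 6.55 RPKM at gd6.5 against 9.09 and 5.69 at gd8.5.

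**Figure D3:**
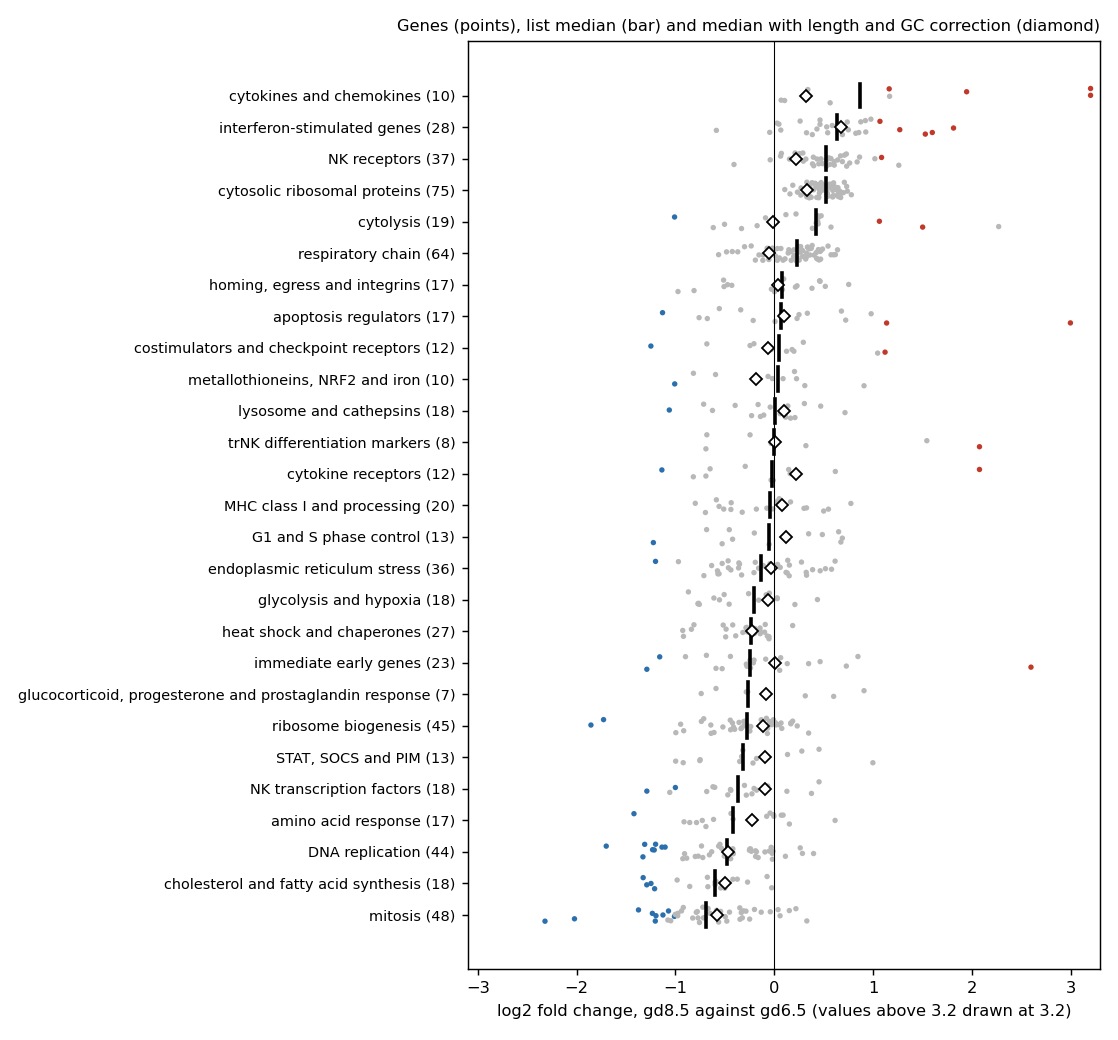
Log2 fold change at gd8.5 against gd6.5 (x axis) of the genes of the 27 lists with 7 or more tested genes, their number in parentheses, as points (red called higher, blue called lower, grey not called), with the list median as a bar and the median after length and GC correction as a diamond. Among these lists, cytokine genes (median 0.86) and interferon-stimulated genes (0.64) lie highest, and cholesterol (-0.60) and mitosis genes (-0.69) lowest, whereas with the correction the cytokine median is 0.32, under that of the interferon-stimulated genes (0.67).

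Cholesterol and fatty acid synthesis, which supplies membrane to dividing cells and whose cholesterol part is under the factor SREBP2, also lay lower. All 18 tested genes had a log2 fold change below 0 (50% of all genes did), 4 (22.2%, against 4.11% of all genes) were called and the median was -0.60. Of the 12 that passed the filter at both days 1 was called (8.33%, against 1.97% of all such genes), and the median was -0.57. Cyp51, an enzyme of cholesterol synthesis, stood at 31.9 and 28.1 against 14.5 and 9.09 RPKM (log2 fold change -1.33, adjusted p = 0.0139), Acly, which makes cytosolic acetyl-CoA, at 40.8 and 38.1 against 20.1 and 12.6 (-1.25, adjusted p = 0.0134), and Srebf2, which encodes SREBP2, at 23.8 and 18.1 against 8.57 and 9.25 (-1.21, adjusted p = 0.0106). Acly without gd8.5 replicate 2 (-0.98) and Srebf2 without gd6.5 replicate 1 (-0.99) fell just under the limit. Among 18 glycolysis and hypoxia genes none was called, and 6 passed the adjusted p on the lower side (14.3% of all genes did), such as Ldha (1039 and 763 against 534 and 508 RPKM). Odc1, the first enzyme of polyamine synthesis, fell from 98.2 and 53.7 RPKM to 19.5 and 21.8 (-1.86, adjusted p = 0.0109).

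Genes of protein synthesis divided by group. All 75 tested cytosolic ribosomal protein genes had a log2 fold change above 0 (50% of all genes did), between 0.11 and 0.78 with a median of 0.53, and 44 passed the adjusted p in that direction (8.01% of all genes did) although none reached 2-fold. All 78 genes of this list summed to 30690 and 36783 RPKM at gd6.5 against 46025 and 47808 at gd8.5. The 45 tested genes of the ribosome biogenesis list had a median of -0.27 (-0.12 with the length and GC correction). Noc2l and Odc1 of this list were called lower (4.44%, near the 4.11% of all genes). Odc1, as an enzyme of polyamine synthesis, does not itself build the ribosome. Both were among the 39 that passed the filter at both days (5.13% called lower, against 1.97% of all such genes). Of the 17 amino acid response genes, the alanyl-tRNA synthetase Aars was called lower, at 13.7 and 10.2 against 4.36 and 4.45 RPKM (5.88% of the list, near the 4.11% of all genes), and the median of -0.42 moved to -0.23 with the length and GC correction, with 8 genes above 0. Heat shock and chaperone genes had 26 of 27 below 0 (50% of all genes) with a median of -0.24, and none was called (edgeR, 7 lower at an adjusted p under 0.05 of any fold, against 14.3% of all genes). The 64 tested respiratory chain genes had a median of 0.23, which turned to -0.05 with the length and GC correction (27 above 0, against 48 before), and the 36 endoplasmic reticulum stress genes -0.14, or -0.04 corrected. Syvn1, a ubiquitin ligase of the endoplasmic reticulum, was the 1 gene of the latter called lower (2.78%, under the 4.11% of all genes), passed the filter only through gd6.5 and was not called without gd6.5 replicate 1 (adjusted p = 0.0749), while with the correction the disulfide isomerase gene Pdia4 was called lower in its place.

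Of 18 tested NK transcription factor genes, Nr4a1 and Runx3 were called lower (11.1%, against 4.11% of all genes), and 15 had a log2 fold change below 0 (against 50% of all genes) with a median of -0.37. With the length and GC correction neither was called and 12 lay below 0. Nr4a1, an orphan nuclear receptor induced by activating signals, stood at 27.5 and 34.3 RPKM at gd6.5 against 13 and 11.9 at gd8.5 (-1.29, adjusted p = 0.0106). Runx3, which supports tissue-resident and cytotoxic lymphocytes, stood at 54.1 and 52 against 25.9 and 26.3 (-1.0, standard error 0.12, adjusted p = 0.0100), right at the fold limit and under it without gd6.5 replicate 1 (-0.96). Eomes, the factor that defines NK cells against ILC1, stood at 55.1 and 65.3 against 40.1 and 33.8 RPKM (-0.68, adjusted p = 0.0227), and Tbx21 (T-bet) at 57.7 and 65.9 against 44.5 and 45.2 (-0.44, adjusted p = 0.0491). Stat3 stood at 31.9, 30.6, 26.7 and 27.5 RPKM (adjusted p = 0.301), and none of the 13 tested STAT, SOCS and PIM genes was called by edgeR, with 4 lower at an adjusted p under 0.05 of any fold (14.3% of all genes were). With the length and GC correction the kinase gene Pim1 was called higher, at 5.72 and 8.45 against 16.6 and 11.3 RPKM (1.24, adjusted p = 0.0385, or 1.00 and 0.0512 uncorrected). Of 23 immediate early genes, Gadd45b, which passed the filter only through gd8.5, was higher (4.35%, against 1.68% of all genes) and Nr4a1 and the phosphatase Dusp5 lower (8.70%, against 4.11%, and 0 after correction), at 48.8 and 25 against 15.7 and 16.9 RPKM for Dusp5 (-1.16, adjusted p = 0.0373). The Dusp5 call was lost without gd6.5 replicate 1 (-0.59, adjusted p = 0.193) and without gd8.5 replicate 1 (adjusted p = 0.0553).

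The remaining large changes had no common list. Among the 15 largest rises were also Cd74 and Cd3g, described with the marker genes, H1f0, D10Jhu81e, Gstp3 and Ifi27l2a. H1f0, a linker histone, stood at 3.99 and 3.94 RPKM at gd6.5 against 11.9 and 53.0 at gd8.5 (log2 fold change 3.06), so its rise was largest in the library with the erythroid transcripts, and it was 1.57 without that library (adjusted p = 0.0207). Its call was lost without gd6.5 replicate 1 (adjusted p = 0.0658). Ifi27l2a (1.69) lost its call without gd6.5 replicate 2 (adjusted p = 0.0964) or gd8.5 replicate 2 (0.161) and stood at 2.52 without gd6.5 replicate 1, and Gstp3 went from 1.98 to 2.78 without that library. The largest fall was that of Rnf187, a ubiquitin ligase, at 119 and 39.1 against 12 and 14.8 RPKM (-2.54, adjusted p = 0.0162), or -1.51 without gd6.5 replicate 1. Others were Ppp2r5d, a regulatory subunit of the phosphatase PP2A (16.4 and 14.8 against 1.80 and 4.22 RPKM), Lmnb1, or lamin B1 (20.8 and 12 against 5.80 and 3.23, with an adjusted p of 0.0863 without gd6.5 replicate 1), and Ubqln1, which hands proteins to the proteasome (30.8 and 23.2 against 3.93 and 9.08). Without gd8.5 replicate 2 the log2 fold change of Ppp2r5d went from -2.35 to -3.12 and that of Ubqln1 from -2.03 to -2.79. Tysnd1, Riox1, Tmem184b, Naa40, Aacs, Rps6ka4, Wrnip1 and Ncln completed the 15 largest falls, with log2 fold changes from -2.09 (Tysnd1) to -1.79 (Ncln). Of the 73 genes called higher 50 were protein coding, 9 were pseudogenes and 6 were small nuclear RNAs, while 177 of the 179 called lower were protein coding. These types were not counted over all genes tested, so the counts cannot be set against a background share. The lengths of the genes called in each direction also differed, as described further on.

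Markers of other cells were read beside these results. Cd74, the invariant chain of MHC class II, stood at 3.11 and 2.41 RPKM at gd6.5 against 13.5 and 23.4 at gd8.5 (log2 fold change 2.76, adjusted p = 0.0101). The 9 class II and antigen-presenting cell genes summed to 28.8 and 45.9 RPKM at gd6.5 against 53.5 and 87.9 at gd8.5. Itgax, the other tested gene of this list, is part of each sum, at over 10 RPKM in each library and a log2 fold change of 0.08. The class II genes H2-Aa, H2-Ab1 and H2-Eb1 reached 8.42, 12.3 and 12.7 RPKM in gd8.5 replicate 2 while they stayed at or under 1.76 in the other libraries. Their part in the rise of Cd74 or Cd83 was not tested. Cd3g, a chain of the CD3 complex that NK cells also transcribe, rose from 32 and 15.2 RPKM to 95.6 and 136 (2.31, adjusted p = 0.0111, or 2.96 without gd6.5 replicate 1). Of the T cell genes that did not reach the filter, Cd3e was at most 0.936 RPKM and Cd4 had 0 counts in each library. Cd8a reached 2.11 RPKM in gd8.5 replicate 1 and 0 in the others. The 6 tested T cell markers, with Cd3d, Trac and Trdc among them, all had a log2 fold change above 0 (50% of all genes did). Their median was 0.48, or 0.27 with the length and GC correction. Of these, 2 passed the adjusted p (8.01% of all genes did) and Cd3g alone was called (16.7%, against 1.68%). The 11 T cell markers together summed to 1209 and 1086 against 1527 and 1528 RPKM, most of it from Trbc1 and Trbc2. The 9 ILC1 markers summed to 56.8 and 86.1 against 112 and 117 RPKM. All 3 tested were above 0 and none was called by edgeR. Among them Ltb stood at 7.99, 31.8, 46.5 and 56.2 RPKM and Icos at 12.4, 12.2, 34.8 and 15.5. The untested members did not move together. Cxcr6 and Rora (at most 0.071 RPKM) were lower at gd8.5, Il7r had 0 counts and Cd200r1 overlapped between days. Tmem176a and Tmem176b were highest in gd8.5 replicate 2, at 2.37 and 11.2 RPKM. The 15 macrophage markers summed to 15.4 and 17.8 RPKM at gd6.5 against 19.7 and 33.3 at gd8.5. Of them 10 stayed under 1 RPKM in each library, and Adgre1 had 0 counts. Cd68, the 1 tested, passed the filter only through gd8.5. It was higher there (log2 fold change 0.99), past the adjusted p, as 8.01% of all genes were, but not the fold limit. The 16 decidual stroma markers summed to 4.06 to 14.4 RPKM. In bulk samples, a change in the share of a cell type and a change in RNA per cell cannot be told apart.

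Gene length moved with the day difference. The genes called higher had a median length of 1359 bases and those called lower 3872, against 3052 over all genes tested, and the median share of G and C was 49.2%, 54.9% and 49.7%. In the shortest of 5 equal groups of genes by length the median log2 fold change was 0.36, and 45 were called higher and 3 lower. In the fourth group it was -0.20, with 5 higher and 67 lower. A fit with smooth terms for length and GC content, added after the data were seen, brought the median of every group to between -0.03 and 0.04. It called 138 genes, 59 higher (1.35%) and 79 lower (1.81%), of which 109 were among the 252. Several list medians stayed near their values, among them those of the interferon-stimulated genes (0.67, with 6 called higher), DNA replication (-0.47, with 5 called lower), mitosis (-0.58, with 7 called lower) and cholesterol synthesis (-0.50, with 2 called lower). The median of the NK receptors went from 0.53 to 0.22 with none called by edgeR, that of cytolysis from 0.42 to -0.02, that of the transcription factors from -0.37 to -0.10, that of the cytokines and chemokines from 0.86 to 0.32, and that of the ribosomal proteins from 0.53 to 0.33. Csf2, Ccl1, Cd83, Tnfsf4, Il2ra, Bcl2a1d, Ifitm1, Ifi27, Plk1, Bub1b and Mcm2 were called in both fits, whereas Gzmc (0.55), Klrb1a (0.68), Ccl5 (0.76), Prf1 (-0.88), Runx3 (-0.53), Nr4a1 (-0.85), Mcm5 (-0.93) and Syvn1 (-0.70) were not called after correction. The calls of Aars, Acly, Bcl2a1b, Dusp5, Ifi27l2a, Ifi47, Il12rb1, Incenp, Kif20a, Kif22, Mcm3, Pold1, Srebf2 and Tnfrsf1b were also lost.

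**Figure D4:**
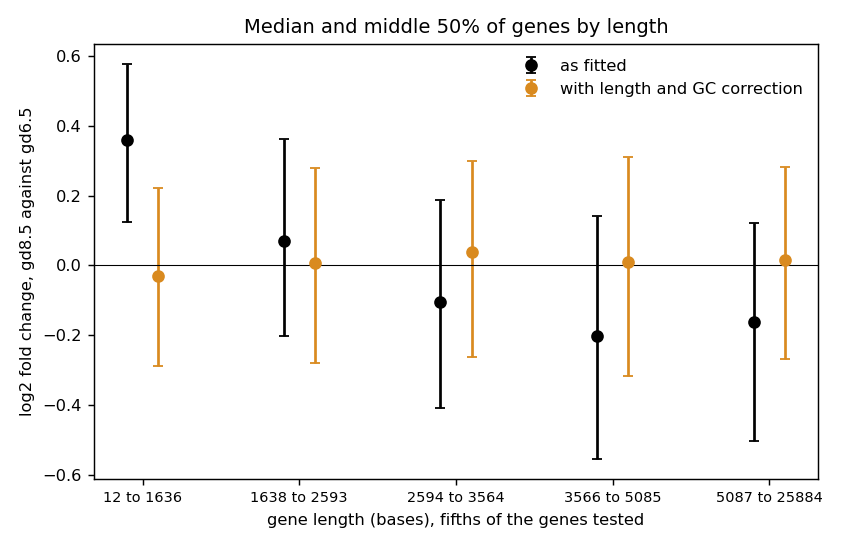
Median log2 fold change at gd8.5 against gd6.5 (points) and the middle 50% of genes (bars) for the tested genes in 5 equal groups by length (x axis, bases), as fitted (black) and with the length and GC correction (orange). As fitted the median goes from 0.36 in the shortest group to -0.20 in the fourth, and with the correction it stays between -0.03 and 0.04.

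At gd8.5 the study also sorted trNK cells by 4-1BB and CD55 into trNK-V (low), trNK-D (intermediate) and trNK-T (high), 2 libraries each, which share no library with the day comparison. The question was whether genes that differed between the days also differed along this axis. Between trNK-T and trNK-V, edgeR called 992 of 4683 genes (21.2%), 378 higher (8.07%) and 614 lower (13.1%) in trNK-T, and the count was 519 without trNK-V replicate 2 and 363 without trNK-T replicate 2. Of the 73 genes that rose by gd8.5, 64 were tested there. In trNK-T, 4 of them (6.25%) were higher than in trNK-V and 29 (45.3%) lower, with a median log2 difference of -1.35. Of the 179 genes that fell, 126 were tested, of which 20 (15.9%) were higher in trNK-T and 6 (4.76%) lower, with a median of 0.25. Among all 4087 genes tested in both comparisons the shares were 8.12% higher and 9.86% lower. Seen from the subsets, 7.2% of the 403 genes lower in trNK-T were among those that rose by gd8.5 and 1.49% among those that fell, while of the 332 higher in trNK-T 1.2% rose and 6.02% fell. Of all genes tested in both comparisons, 1.57% rose and 3.08% fell between the days.

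The genes that were higher on both axes were Gzmc, Ifitm1, Ccl1 and Smim3. Gzmc stood at 812.5 and 699 RPKM in trNK-V, 4347 and 6747 in trNK-D and 15668 and 11340 in trNK-T, and Ifitm1 at 4.68 and 16.4, 9.32 and 212, and 504 and 909. Ccl1 had 0 RPKM in both trNK-V libraries, 7.01 and 50.8 in trNK-D and 110 and 28.3 in trNK-T. Gzmc and Ifitm1 thus spanned a far wider range among the subsets than between the days. In contrast, Ccl3 rose by gd8.5 but stood at 118 and 267 RPKM in trNK-V and 0 and 3.85 in trNK-T, Tnfrsf18 at 148 and 145 against 68.6 and 39, Rtp4 at 39.5 and 38.3 against 7.26 and 0.633, and Cd74 at 362 and 227 against 5.18 and 4.07. The trNK-V level of Cd74 was far above that of the gd8.5 trNK libraries given with the marker genes. Both of the 2 tested class II and antigen-presenting cell genes were called lower in trNK-T, as were 4 of the 6 tested T cell markers. Among all genes tested in both comparisons the share was 9.86%. The part of other cells in the subset differences was not tested. Prf1 fell between the days and was higher in trNK-T, at 266 and 226 RPKM in trNK-V and 844 and 984 in trNK-T (log2 difference 1.90). Bub1b, Incenp, Tuba1b, Tubb6, Ccne1 and Il12rb1 likewise fell between the days and were higher in trNK-T. Nr4a1 was lower on both axes, at 32.3 and 17.1 RPKM in trNK-V against 12.2 and 4.97 in trNK-T. Csf2 was scarce in every sorted subset library but 1, at 3.73 and 6.05 RPKM in trNK-V, 1.02 and 25.3 in trNK-D and 0.747 and 1.58 in trNK-T, well under the 78.4 and 104 of the gd8.5 trNK libraries, which were not sorted on these markers.

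**Figure D5:**
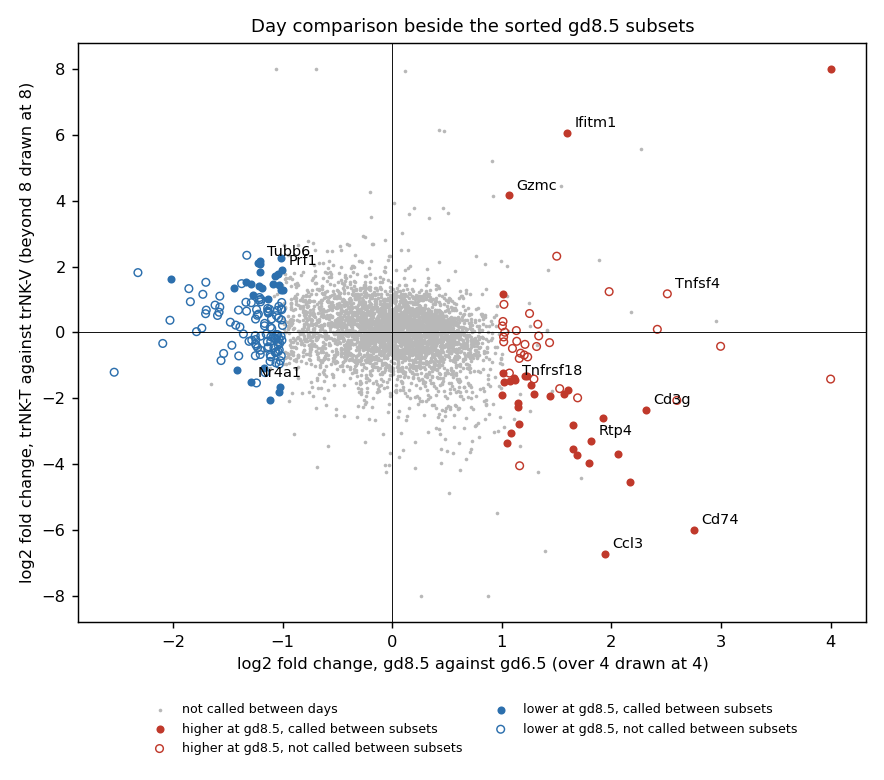
Log2 fold change at gd8.5 against gd6.5 (x axis) and of trNK-T against trNK-V (y axis) for the genes tested in both, with genes called between the days in colour and filled where also called between the subsets. Of the 64 genes that rose by gd8.5, 29 lie called below 0 on the y axis and 4 above it, and of the 126 that fell, 20 lie called above it and 6 below.

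The virgin trNK libraries, which entered the fit over 6 libraries but not the day calls, gave a further level for the main genes. Plk1 stood at 5.91 and 11 RPKM in them, Bub1b at 2.74 and 6.42, Mcm2 at 13.8 and 14 and Mcm5 at 30.2 and 30.6, near or under their gd8.5 levels. Tnfsf4 stood at 3.55 and 4.93 RPKM, under both days. Other genes differed widely between the virgin replicates, such as Ccl1 at 0 and 119, Csf2 at 11.1 and 57.8, and Gzmc at 22.4 and 8387, so that no single virgin level can be given for them.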

How the data were processed

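Bulk RNA-seq counts of 4 libraries of sorted uterine trNK cells were compared, 2 from gd6.5 and 2 from gd8.5, with days and replicate numbers taken from the sample labels. By the methods, the authors sorted cells into SMART-Seq HT lysis buffer, amplified cDNA by PCR, prepared libraries with the NEBNext Ultra kit and sequenced paired ends on the NovaSeq platform. The submitters' processing notes name HISAT2 2.1.0, featureCounts of Subread and mm10, whereas the methods name RSEM for quantification. The authors deposited raw counts, which are whole numbers of reads per gene without normalization, beside exon positions and gene lengths on mm10. Whether counting used the strand is not given in the sources used here.

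RPKM of every library were calculated from the gene lengths in the file of gd6.5 replicate 1. Following the filter of the methods, a gene was kept where both libraries of either day exceeded an RPKM of 10. This left 4356 of the 54353 genes shared by the 12 libraries read, with the virgin and subset libraries among them. Counts were scaled by TMM (factors 0.983 to 1.01) and tested with edgeR 4.0.16 (quasi-likelihood) in R 4.3.3 with no covariate, in place of the limma pipeline of the methods, since the files hold counts. The 4 libraries of the days compared entered the fit, and trNK-T and trNK-V were compared in a fit over the 6 subset libraries. Calls needed an adjusted p (Benjamini-Hochberg over all genes tested) below 0.05 and a fold change above 2. The common biological coefficient of variation was 0.159. Depth was not varied. The method was tested on simulated data. Alternatives used limma 3.58.1 (voom), DESeq2 1.42.0, RLE scaling, other filters and thresholds, a replicate block and each library left out. Further ones used all 6 libraries of virgin, gd6.5 and gd8.5 trNK, and a correction for length and GC content (splines with 5 degrees of freedom, all 4356 genes with a value). Replicate numbers did not pair the libraries.

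Named genes were the 15 largest rises and falls whose libraries do not overlap, the 10 most abundant called genes of each direction, genes of the lists and mouse genes the paper names. Predicted genes and pseudogenes were counted and not named. The comparison, the choice of its libraries for the fit and the gene lists, written from general knowledge, were settled with earlier results of these data known. Promoters are those of RefSeq on GRCm38.p6, matched by symbol for 3315 of the genes tested. Libraries of other experiments and the single-cell counts were not used here. Some of the genes counted are not reported here by name.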

Additional observations from a re-analysis of the deposited data

How the results depend on the processing

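The number of genes called between the days depended on which libraries shared the estimate of the spread and on the filter. With the virgin libraries added to the fit, 6 libraries in all, it was 0 (0 higher and 0 lower). With edgeR's filterByExpr it was 72 (22 and 50), with no filter 727 (251 and 476) and with an RPKM above 1 378 (109 and 269). With no fold threshold it was 974 (349 and 625) and with the length and GC correction, chosen after seeing the data, 138 (59 and 79). DESeq2 called 260, limma-voom 266 and RLE scaling 254. On leaving out a library in turn it ranged from 141 to 372, the higher genes from 39 to 133 and the lower from 102 to 245. The lowest values, 141, 39 and 102, were those without gd6.5 replicate 1, and the 133 was that without gd6.5 replicate 2. A day left with 1 library was assumed to vary like the other. The filter was applied anew, so such a day needed an RPKM above 10 in that library alone, and the genes tested were not the same. Between trNK-T and trNK-V the count ranged from 363 without trNK-T replicate 2 to 971, with 519 without trNK-V replicate 2. With the replicate number as a replicate block, 253 genes were called between the days (75 higher and 178 lower) and 1048 between the subsets. Same-numbered libraries did not deviate together (correlation -0.0259), so the numbers were not taken as pairs. Of the 83 named genes called, none changed sign. Leaving out a library could hardly change the sign, since the libraries of each called gene did not overlap between the days. DESeq2 and voom each kept 81, filterByExpr 28, the length and GC correction 58 and the settings without a library 50 to 80, while all 6 libraries kept 0. What depth limits was not tested.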
